A study of Mus musculus with 4 samples.

Results

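The genes described here are 42 enzymes and fuel carriers of glycolysis, the pentose phosphate pathway and the tricarboxylic acid (TCA) cycle, taken by name from the 53465 genes counted in each library. The list holds 3 carriers, 15 glycolytic enzymes, 2 bifunctional regulators of phosphofructokinase (the PFKFB enzymes), 2 lactate dehydrogenase subunits, 4 pentose phosphate enzymes, 3 core subunits of pyruvate dehydrogenase (PDH), 3 PDH kinases and 10 TCA subunits. The RNA was that of Fgf10-positive cells, obtained by sorting from the submandibular gland, a major salivary gland, of mice. All mice were C57BL/6J and carried Fgf10CreERT2 and Rosa26Tomato fl/fl, so that Cre under Fgf10 control, once activated by tamoxifen at 0.1 mg per g of body weight, left a lasting Tomato label in cells that used the Fgf10 gene at that time and in their descendants. Adults were injected on postnatal days 57 and 58 and taken on day 60, and pups were injected on days 4 and 5 and taken on day 7. Each age had 2 libraries, and the series asks how the RNA of the labelled cells differs between the ages. Whether the replicates of an age are separate animals, or pools of animals, is not in the labels, so p-values measure the spread between these libraries, which may be technical.

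Glycolysis splits glucose into pyruvate in the cytosol, the pentose phosphate pathway branches off to make NADPH and ribose, and the TCA cycle oxidises acetyl-CoA, made from pyruvate by PDH, in mitochondria. Several steps are run by isozymes from different genes. Hk2 and Ldha are known for proliferating cells, and Hk1 and Ldhb for tissues with a steady oxidative metabolism. In the salivary gland, ion-transporting duct cells are rich in mitochondria.

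Counts over genes came to between 7289792 and 21490686 per library, the lowest in pup replicate 1. In that library 76.7% of all reads tallied overlapped no counted feature, against 9.70% to 10.6% in the others. Whether reads in introns are among them depends on counting options that are not given. Olfactory receptor genes, which serve the nose, gave 14.0 counts per kb of exon there and 0.0661 to 0.151 in the other libraries. The expected background of a gene in pup replicate 1 was taken as that rate times its exon length. Fgf10 itself stood at 195 and 40.3 CPM (counts scaled to a common library size with TMM factors) in adult replicates 1 and 2 and at 27.3 and 24.1 CPM in pup replicates 1 and 2. Markers of cell types also differed. Of all genes tested, 21.8% were higher in both adults than in both pups and 27.1% were lower in both. All 8 ionocyte markers (ionocytes are duct cells rich in proton pumps) were higher in both adults than in both pups, with summed levels of 7867 and 4974 CPM against 167 and 217 CPM, and so were all 8 general epithelial markers (8413 and 12670 against 1476 and 3462 CPM). For 8 duct markers, 5 of them non-overlapping, the sums were 13356 and 19997 against 590 and 1561 CPM, with Egf at 0 in pup replicate 2. For 8 mesenchymal markers, 6 of them non-overlapping and lower in adult, the sums were 1256 and 22439 against 26104 and 59715 CPM, so that adult replicate 2 lay close to pup replicate 1. For 8 markers of myoepithelium and smooth muscle they were 6067 and 2641 against 5598 and 16753 CPM. For 8 acinar markers they were 562.5 and 48642 against 628 and 2151 CPM, with Aqp5, Amy1, Dcpp1 and Dcpp2 at 0 counts in adult replicate 1. Mucl2 (37832 CPM) and Pip (10397 CPM) made up most of the acinar sum of adult replicate 2. Of the 8 acinar markers 1, Mucl2, was higher in both adults than in both pups, and 4, Amy1, Dcpp1, Dcpp2 and Smgc, were lower in both. For Amy1 the gap was small, at 0 and 5.76 CPM in adult and 7.03 and 5.88 CPM in pup. Background accounted for an expected 48.2 of its 65 counts in pup replicate 1. Endothelial sums were 260.1 and 1468 against 166 and 10.2 CPM, and 6 of the 8 endothelial markers, Cdh5, Kdr, Tek, Tie1, Emcn and Cldn5, were at 0 in adult replicate 1. Sums over 8 markers each reached at most 106 CPM for leukocytes, 22.7 for red cells, 252 for Schwann cells and nerve, 91.0 for skeletal muscle and 172 for fat in any library. Epithelial, duct and ionocyte markers thus stood higher in adult, as most of the enzymes did. Their part in the results was not tested, and in bulk RNA more cells of a type and more RNA per cell cannot be told apart.

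As a set the enzymes stood higher in adult cells. The members were chosen with earlier results of these data known. No set test was run, and the shares given here only describe them. Each of the 42 passed the count filter. Adult exceeded pup in 38 of them, and the median log2 fold change was 1.36. Over all 16320 genes tested 42.9% were positive and the median was -0.24. For 33 of the 42 (78.6%) both adult libraries lay above both pup libraries, where 21.8% of all genes did so. For 3, Slc16a1, Hk2 and Eno2, both adults lay below both pups, against 27.1% of all genes. The quasi-likelihood test of edgeR called 0 of the 42 at an adjusted p of 0.05, as it called 0 of all genes (0.0% in each direction). At an unadjusted p under 0.05 edgeR gave 13 of the 42 higher and 2 lower in adult, where 5.99% and 8.49% of all genes passed. DESeq2 called 14 higher and 1 lower, against 3.74% and 5.28% of all genes, and limma-voom called 0 of either (0.0% in each direction). The members called by DESeq2 were Slc2a1, Hk1, Gpi1, Pfkp, Aldoa, Tpi1, Pkm, Ldhb, Pgd, Taldo1, Pdhb, Pdk2, Idh3a and Ogdh, all higher in adult, and Slc16a1, lower. The smallest edgeR adjusted p of the set was 0.196, for Slc16a1. Between the pups 21 of the 42 were over 2-fold apart, near the 52.1% of all genes, but the median of pup 1 over pup 2 was -0.94 on the log2 scale for the 42 and 0.08 for all genes. The median of the 42 was 0.95 without pup replicate 1 (0.04 for all genes) and 2.003 without pup replicate 2 (-0.21 for all genes). With both adults set against pup replicate 2 alone, 34 of the 42 were higher in both adults and 3 lower, where 34.0% and 40.1% of all genes were.

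**Figure D1:**
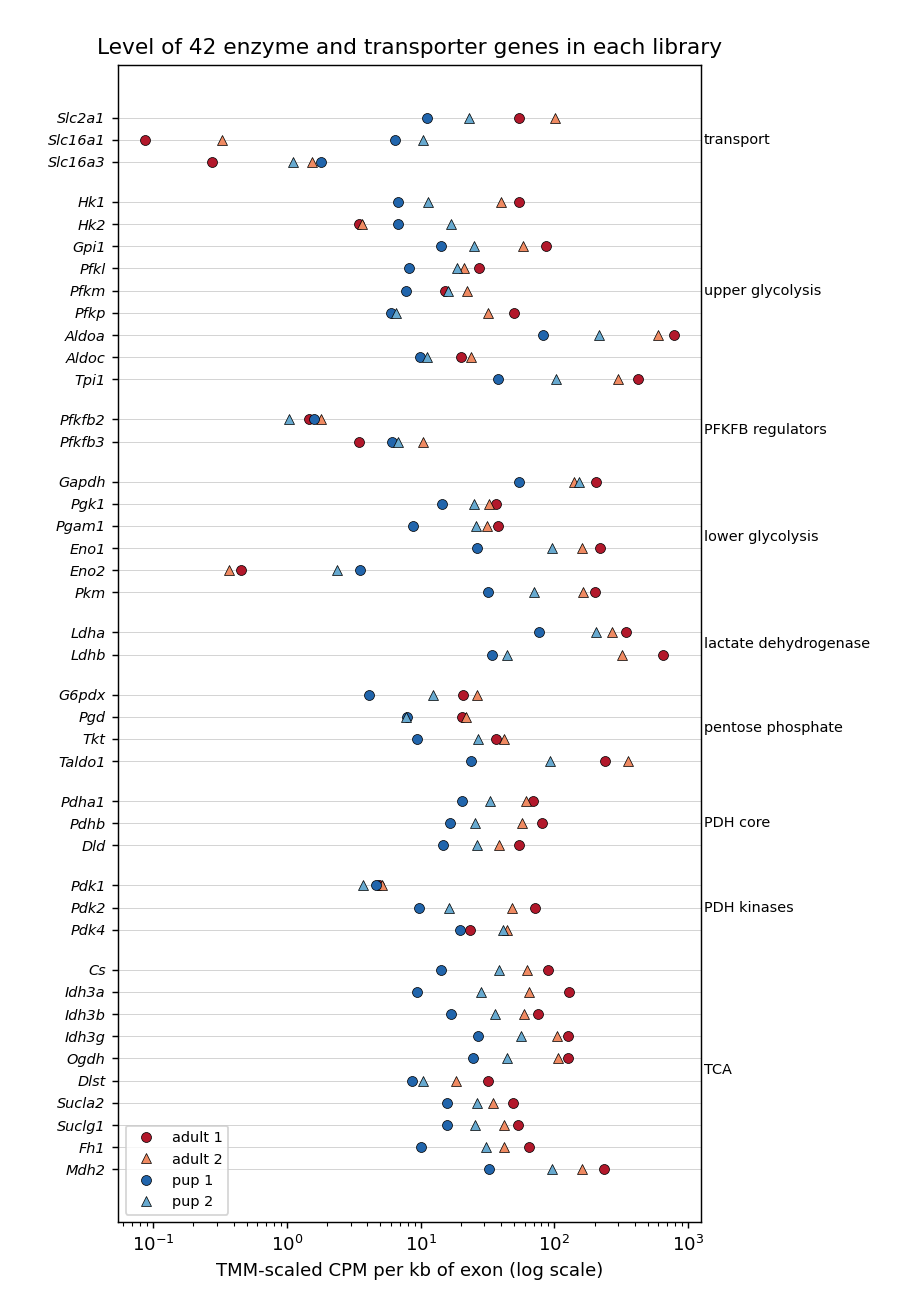
Level of each of the 42 genes (rows, grouped by pathway step) in each library, as TMM-scaled CPM per kb of exon on a log axis; circles are replicate 1, triangles replicate 2, red shades adult and blue shades pup. Adult points lie to the right of pup points for 33 genes and to the left for Slc16a1, Hk2 and Eno2.

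**Figure D2:**
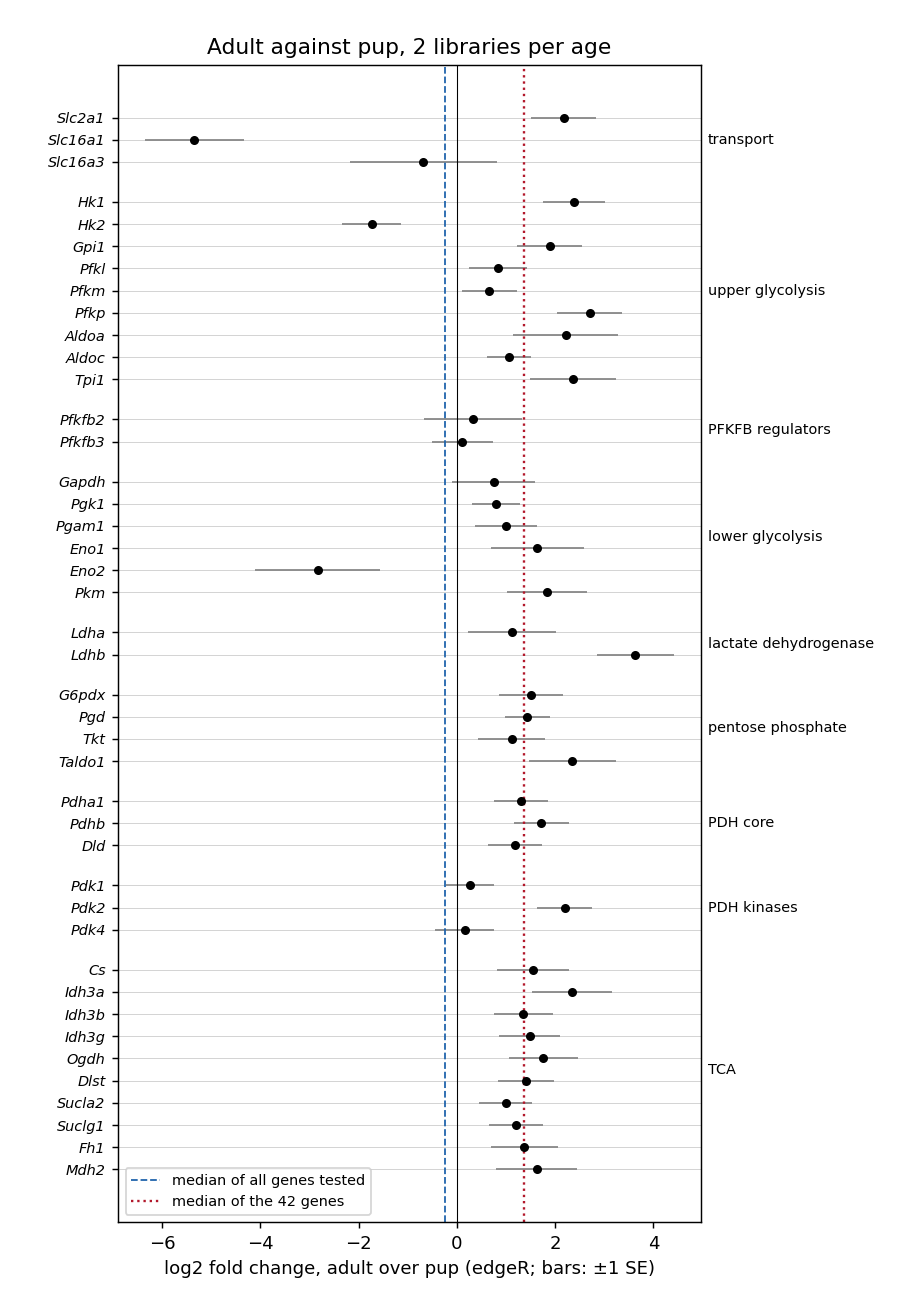
Log2 fold change of adult over pup for each gene from edgeR with bars of 1 standard error, 2 libraries per age. The dotted line is the median of the 42 genes (1.36) and the dashed line that of all genes tested (-0.24); Ldhb lies farthest right and Slc16a1 farthest left.

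Promoters are shown for Hk1, Hk2, Ldha, Ldhb and Slc16a1, chosen after their values were seen: the balance within the pairs Hk1 and Hk2 and Ldha and Ldhb did not overlap between the ages, and Slc16a1 had the lowest fold change. Each sequence is the 250 bases before the RefSeq start nearest the gene's 5′ end (RefSeq, GRCm38.p6), written 5′ to 3′ on the strand of the gene. Capitals mark ACGTG on either strand, a form of the core that hypoxia-inducible factors are known to bind. ACGTG is also part of the E-box CACGTG bound by Myc. The other form of the core, GCGTG, was not marked or counted, and it occurs, for example, in the Ldhb window.
Hk1, chr10:62379909-62380158, minus strand: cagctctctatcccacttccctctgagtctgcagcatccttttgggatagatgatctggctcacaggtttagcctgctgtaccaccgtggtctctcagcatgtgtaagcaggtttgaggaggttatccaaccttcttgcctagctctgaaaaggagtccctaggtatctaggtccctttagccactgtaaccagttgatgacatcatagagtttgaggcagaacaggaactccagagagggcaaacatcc
Hk2, chr6:82774455-82774704, minus strand: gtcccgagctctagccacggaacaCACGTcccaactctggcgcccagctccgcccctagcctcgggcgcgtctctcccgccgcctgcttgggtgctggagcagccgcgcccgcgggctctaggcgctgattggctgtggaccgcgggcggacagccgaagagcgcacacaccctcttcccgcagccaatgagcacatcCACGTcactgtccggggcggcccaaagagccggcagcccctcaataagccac
Ldha, chr7:46845554-46845803, plus strand: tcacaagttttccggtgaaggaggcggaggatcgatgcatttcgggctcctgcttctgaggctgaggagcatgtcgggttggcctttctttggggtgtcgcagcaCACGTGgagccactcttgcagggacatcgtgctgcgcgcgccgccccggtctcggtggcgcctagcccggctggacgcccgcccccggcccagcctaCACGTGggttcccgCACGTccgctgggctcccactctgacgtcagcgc
Ldhb, chr6:142507958-142508207, minus strand: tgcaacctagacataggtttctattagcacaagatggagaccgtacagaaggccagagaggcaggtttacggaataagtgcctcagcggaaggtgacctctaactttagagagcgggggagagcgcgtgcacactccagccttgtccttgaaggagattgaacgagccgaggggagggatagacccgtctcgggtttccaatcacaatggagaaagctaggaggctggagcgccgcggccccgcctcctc
Slc16a1, chr3:104638414-104638663, plus strand: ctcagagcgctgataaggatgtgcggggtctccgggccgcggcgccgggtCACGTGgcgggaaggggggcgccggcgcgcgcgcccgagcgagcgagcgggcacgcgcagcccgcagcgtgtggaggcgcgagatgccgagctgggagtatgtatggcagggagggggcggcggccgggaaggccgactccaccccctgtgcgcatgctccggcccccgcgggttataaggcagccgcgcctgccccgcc
Hk2 holds 2 such stretches, Ldha 3 and Slc16a1 1, whereas these letters are not in the windows of Hk1 and Ldhb. The Ldha start lies inside the gene's GENCODE span. RefSeq lists 2 starts for Hk1 and for Ldha, and the windows at their other starts hold no ACGTG. A RefSeq promoter was matched for 41 of the 42 genes, and Idh3a had none. ACGTG was in 13 of the 41 (31.7%), against 16.6% of all 32851 promoters of that length, and CACGTG in 4 (9.76%) against 6.02%. The 32851 hold every listed start of a gene and the 41 hold 1 start per gene, so these shares are not of like units. Counting every RefSeq start of a gene, 16 of the 41 held ACGTG, as Pfkfb2, Aldoa and Pkm have it at other starts only. The matching share per gene over all genes was not computed. The 13 were Slc2a1, Slc16a1, Slc16a3, Hk2, Pfkm, Pfkfb3, Pgk1, Pgam1, Ldha, Pdhb, Pdk2, Idh3g and Ogdh. Their log2 fold changes ran from -5.34 for Slc16a1 to 2.19 for Pdk2, with a median of 1.0. The 28 without ACGTG ran from -2.83 for Eno2 to 3.64 for Ldhb, with a median of 1.39. The difference between these medians was not tested, and the 5 promoters shown do not stand for the set. The longer motif TNAAGGTCA, known from oestrogen-related receptors, was in 0 of the 41 and in 1.14% of all promoters, searched on both strands.

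The 3 carriers differed in direction. Slc2a1 (GLUT1, the widespread glucose carrier; ENSMUSG00000028645, chromosome 4, 119108711 to 119137983 in GRCm38) stood at 190 and 353 CPM in adult cells and 39.0 and 81.2 CPM in pup cells. Both adults were above both pups, a log2 fold change of 2.18 ± 0.66 (SE; edgeR adjusted p = 0.282, DESeq2 adjusted p = 0.00892). Markers of red cells summed to 0.230 and 12.7 CPM in adult and 22.7 and 5.20 CPM in pup. Their part in the Slc2a1 values was not tested. Slc16a1 (MCT1, which moves lactate and pyruvate across the cell membrane; ENSMUSG00000032902, chromosome 3, 104638668 to 104658462) stood at 0.383 and 1.44 CPM in adult cells and 28.7 and 46.2 CPM in pup cells. Those are 5 and 20 counts against 265 and 879 counts, with 61.9 counts expected from background in pup replicate 1. The log2 fold change of -5.34 ± 1.01 (SE) was the lowest of the 42 (edgeR adjusted p = 0.196, DESeq2 adjusted p = 3.05e-06). It was -5.65 without pup replicate 1 and -5.46 with background subtracted. edgeR called it without adult replicate 1 (adjusted p = 0.0195, log2 fold change -4.73) and without adult replicate 2 (adjusted p = 0.000485, log2 fold change -6.58), where 0.987% and 4.49% of all genes were called lower (1.4% and 1.51% higher). Slc16a3 (MCT4, a carrier known for lactate export) was low throughout, at 1.46 and 8.21 CPM in adult and 9.63 and 5.88 CPM in pup, and its libraries overlapped. The background expected in pup replicate 1 was 74.4 counts, of 89 found.

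Hexokinase, which traps glucose in the cell as glucose 6-phosphate, was divided differently between Hk1 and Hk2 at the ages. Hk1 (ENSMUSG00000037012, chromosome 10, 62268855 to 62379908) stood at 467 and 341 CPM in adult cells and 58.2 and 96.4 CPM in pup cells. Hk2 (ENSMUSG00000000628, chromosome 6, 82725025 to 82774454) stood at 20.5 and 21.8 CPM in adult cells and 40.7 and 100.2 CPM in pup cells. Neither gene's ages overlapped, and the directions were opposite. The log2 fold changes were 2.39 ± 0.63 (SE) for Hk1 and -1.73 ± 0.59 for Hk2, with edgeR adjusted p of 0.257 and 0.284 and DESeq2 adjusted p of 0.000160 and 0.0865. Per kb of exon Hk1 made up 94.1% and 91.6% of the hexokinase level in adult and 50.03% and 40.2% in pup. Subtracting the background left the Hk1 share of pup replicate 1 at 50.01%. The log2 ratio of Hk1 to Hk2 was 3.72 ± 0.38 (SD, n = 2) in adult and -0.29 ± 0.41 in pup. That ratio, taken within a library, does not depend on the scaling between libraries. Its exact two-sided permutation test gave p = 0.333, the smallest that 2 against 2 libraries allow.

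The next enzymes of upper glycolysis stood higher in adult without such opposition. Gpi1, which turns glucose 6-phosphate into fructose 6-phosphate, stood at 560 and 374 CPM against 90.8 and 162 CPM, a log2 fold change of 1.89 ± 0.67 (SE). Phosphofructokinase, the committed step, has a liver, a muscle and a platelet type. Pfkp, the platelet type (ENSMUSG00000021196, chromosome 13, 6579768 to 6648777), stood at 667 and 428 CPM in adult cells and 80.1 and 87.8 CPM in pup cells. Its log2 fold change was 2.70 ± 0.66 (SE; edgeR adjusted p = 0.241, DESeq2 adjusted p = 2.68e-06), and 2.64 without pup replicate 1, where the expected background was 187 of 740 counts. Pfkl, the liver type, stood at 183 and 140 against 54.5 and 125 CPM, and Pfkm, the muscle type, at 51.0 and 74.8 against 26.1 and 53.3 CPM. Their log2 fold changes were 0.84 ± 0.59 and 0.66 ± 0.55 (SE). The Pfkm libraries overlapped, and the lower adult and higher pup value of Pfkl, 140 and 125 CPM, were close. Pfkp took 53.8% and 42.4% of the phosphofructokinase level per kb in adult and 27.2% and 15.9% in pup. The log2 ratio of Pfkl to Pfkp was below 0 in both adults (-0.86 and -0.61) and above 0 in both pups (0.45 and 1.52). The sign in pup replicate 1 rests on the exon lengths of 6675 bases for Pfkl and 13401 for Pfkp, since in counts Pfkp led there with 740 against 504. The ratio of Pfkl to Pfkm overlapped between the ages.

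The PFKFB enzymes set the level of fructose 2,6-bisphosphate, the activator of phosphofructokinase. Pfkfb3 stood at 26.4 and 79.0 CPM in adult cells and 45.9 and 51.5 CPM in pup cells, the adults lying on either side of the pups. Pfkfb2 stood at 10.6 and 13.1 against 11.5 and 7.46 CPM, and background accounted for an expected 101 of its 106 counts in pup replicate 1. The fold changes of both, 0.11 ± 0.62 and 0.32 ± 1.001 (SE, log2), turned negative when libraries were scaled by their totals, that of Pfkfb3 also under upper-quartile scaling and without adult replicate 2 (-0.89).

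Aldolase and triose phosphate isomerase, which produce the triose phosphates, were among the most abundant members. Aldoa (ENSMUSG00000030695, chromosome 7, 126795234 to 126800751) stood at 2290 and 1740 CPM in adult cells and 238 and 630 CPM in pup cells. The log2 fold change was 2.21 ± 1.07 (SE; edgeR adjusted p = 0.425, DESeq2 adjusted p = 0.00451), and 1.67 without pup replicate 1. Aldoc, the brain type, stood at 65.8 and 77.7 against 32.2 and 36.6 CPM (1.06 ± 0.45 on the log2 scale). It was the minor form in every library, between 2.5% and 10.8% of aldolase per kb. Tpi1 stood at 1159 and 820 against 104 and 282 CPM, a log2 fold change of 2.36 ± 0.88 (edgeR adjusted p = 0.296).

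In the lower part of glycolysis, which yields ATP and NADH, the 6 genes had a median log2 fold change of 0.90, where the 9 of the upper part had 1.89. Gapdh, often used as a reference gene, stood at 849 and 582 CPM in adult cells and 223 and 629 CPM in pup cells. Its ages overlapped, with pup replicate 2 between the adults, and its log2 fold change of 0.75 ± 0.84 (SE) was 0.18 without pup replicate 1 and 1.68 without pup replicate 2. Phosphoglycerate kinase Pgk1 (81.8 and 72.6 against 32.6 and 56.1 CPM) and phosphoglycerate mutase Pgam1 (75.0 and 62.1 against 17.3 and 51.1 CPM) had log2 fold changes of 0.80 ± 0.49 and 1.0 ± 0.63 (SE), and of 0.46 and 0.42 without pup replicate 1. Pkm, pyruvate kinase, stood at 1014 and 820 against 160 and 352 CPM (log2 fold change 1.84 ± 0.82, edgeR adjusted p = 0.384, DESeq2 adjusted p = 0.0132). Counts per gene do not separate its M1 and M2 splice forms. Eno1, the widespread enolase, stood at 1172 and 869 against 142 and 514 CPM (1.64 ± 0.94 on the log2 scale, 0.99 without pup replicate 1). Eno2, the neuronal enolase, stood lower in adult, at 2.15 and 1.73 CPM in adult and 16.7 and 11.1 CPM in pup. Its log2 fold change was -2.83 ± 1.28 (edgeR adjusted p = 0.395, DESeq2 adjusted p = 0.0594), with 65.8 of the 154 counts of pup replicate 1 expected from background. Enolase was nearly all Eno1 in the adults (99.8% in both, per kb), and Eno2 took 11.9% and 2.41% in the pups. Markers of Schwann cells and nerve summed to 58.6 and 108 CPM in adult and to 140 and 252 CPM in pup, and their part in the Eno2 values was not tested.

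Lactate dehydrogenase, which interconverts pyruvate and lactate, had in its H subunit gene the highest fold change of the 42, though edgeR did not call it. Ldhb (ENSMUSG00000030246, chromosome 6, 142490249 to 142507957) stood at 1023 and 506 CPM in adult cells and 53.2 and 69.7 CPM in pup cells. The lowest adult was far above the highest pup, and the log2 fold change was 3.64 ± 0.79 (SE; edgeR adjusted p = 0.213, DESeq2 adjusted p = 1.16e-08). It ranged from 2.997 to 4.06 as each library was left out in turn. Ldha, the M subunit gene (ENSMUSG00000063229, chromosome 7, 46841475 to 46855627), stood at 1127 and 899 against 252 and 678 CPM. Its log2 fold change was 1.12 ± 0.89 (edgeR adjusted p = 0.656), and 0.58 without pup replicate 1. Per kb of exon Ldhb made up 65.7% and 54.2% of lactate dehydrogenase in adult and 30.8% and 17.8% in pup, and with background subtracted 30.3% in pup replicate 1. The log2 ratio of Ldha to Ldhb was -0.59 ± 0.49 (SD, n = 2) in adult and 1.69 ± 0.73 in pup. The ratio did not overlap between the ages, with the exact permutation p at its floor of 0.333 (two-sided). Which subunit leads depends on the exon lengths used, 3310 bases for Ldha and 1570 for Ldhb: in CPM Ldha exceeded Ldhb in all 4 libraries. The difference of the log2 ratio between the ages does not depend on those lengths. Within adult it was -0.94 in replicate 1 and -0.25 in replicate 2.

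**Figure D3:**
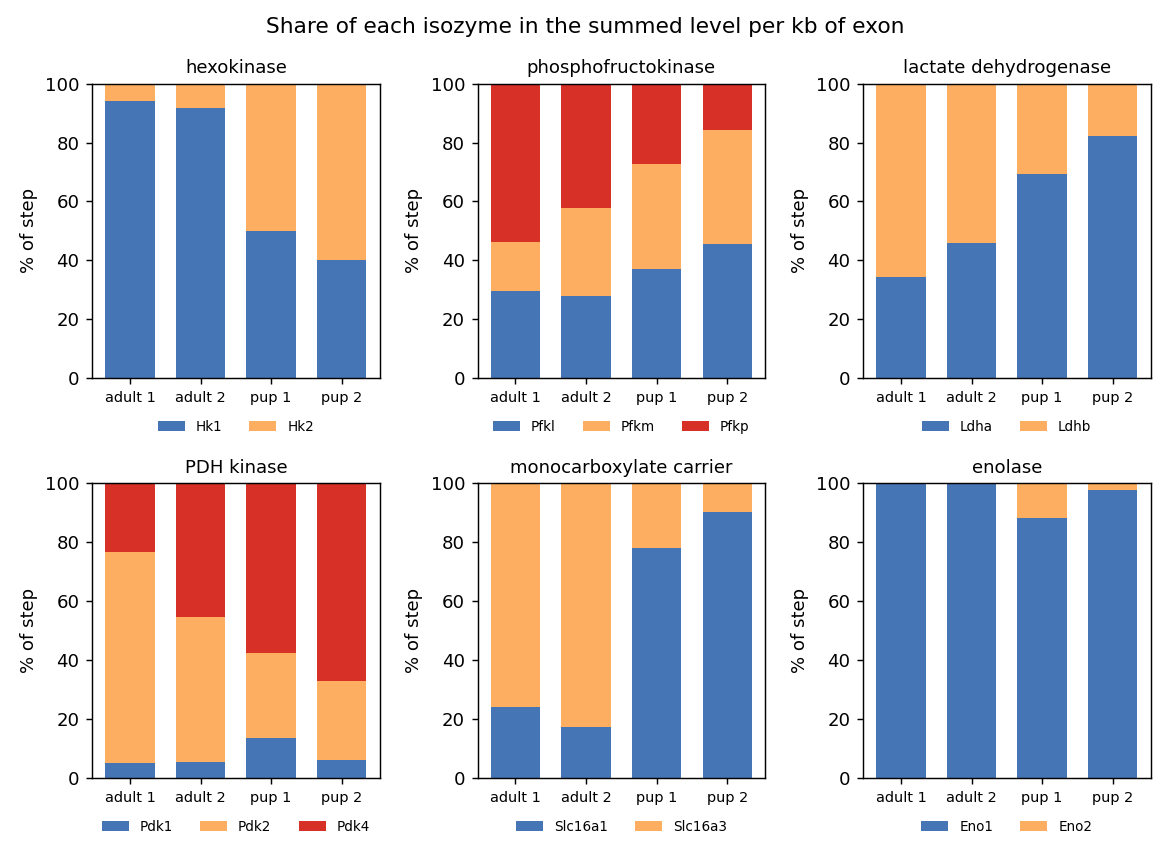
Share of each isozyme in the summed level per kb of exon of its step, in each library (stacked bars that add to 100%). Hk1 leads in the adults at 94.1% and 91.6%, Ldhb takes 65.7% and 54.2% there against 30.8% and 17.8% in the pups, and Slc16a1 leads Slc16a3 in the pups only.

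All 4 pentose phosphate enzymes stood higher in both adults than in both pups, where 21.8% of all genes did so. G6pdx, the rate-limiting NADPH-forming enzyme, stood at 64.1 and 81.6 against 12.6 and 38.2 CPM, with an expected background of 43.1 of its 116 counts in pup replicate 1. Pgd, the second NADPH-forming enzyme, stood at 132 and 141 against 51.1 and 50.1 CPM (log2 fold change 1.43 ± 0.45, SE; edgeR adjusted p = 0.284, DESeq2 adjusted p = 0.0389). Its fold change stayed between 1.39 and 1.44 as each library was left out. In the non-oxidative branch, transaldolase Taldo1 stood at 518 and 774 against 52.1 and 202 CPM (2.35 ± 0.88, edgeR adjusted p = 0.302) and transketolase Tkt at 269 and 311 against 69.4 and 198 CPM (1.11 ± 0.69). Taldo1, Tkt, Pgd and G6pdx were each higher in adult replicate 2 than in adult replicate 1, whereas 28 of the 42 were higher in adult replicate 1.

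PDH, the gate from glycolysis to the TCA cycle, stood higher in adult in its core subunits. Pdha1 and Pdhb, the E1 subunits, stood at 259 and 230 against 75.4 and 123 CPM and at 314 and 222 against 64.3 and 97.9 CPM. Dld, the E3 subunit shared with the oxoglutarate complex, stood at 199 and 142 against 54.0 and 97.0 CPM. The log2 fold changes were 1.302 ± 0.55, 1.72 ± 0.57 and 1.176 ± 0.55 (SE), and the log2 ratio of Pdha1 to Pdhb differed between the ages by -0.39. The PDH kinases, which switch the complex off, differed in pattern. Pdk2 (ENSMUSG00000038967, chromosome 11, 95026258 to 95041354) stood at 225 and 152 CPM in adult cells and 30.6 and 51.9 CPM in pup cells (2.19 ± 0.56, edgeR adjusted p = 0.244, DESeq2 adjusted p = 0.00297). Pdk4, known to be induced by fasting, stood at 81.7 and 156 against 68.6 and 144 CPM, so that the replicates differed more than the ages. Pdk1, a known target of hypoxia-inducible factor, stood at 38.1 and 40.2 against 35.9 and 29.0 CPM. The small positive fold changes of Pdk1 and Pdk4 (0.27 ± 0.49 and 0.16 ± 0.61) turned negative when libraries were scaled by their totals, that of Pdk4 also without adult replicate 2 (-0.38) or pup replicate 1 (-0.29). Per kb, Pdk2 took 71.6% and 49.2% of the 3 kinases in adult and 28.6% and 26.8% in pup, where Pdk4 led with 57.7% and 67.1%.

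Every one of the 10 TCA subunits stood higher in both adults than in both pups, where 21.8% of all genes did so. Their log2 fold changes spanned 0.99 to 2.35 with a median of 1.45. edgeR called 0 of the 10, with 3 at an unadjusted p under 0.05, and DESeq2 called Idh3a and Ogdh (5.99% and 3.74% of all genes were so called higher in adult). Idh3a, the catalytic subunit of the NAD-linked isocitrate dehydrogenase (ENSMUSG00000032279, chromosome 9, 54586334 to 54604661), stood at 651 and 328 CPM in adult cells and 47.8 and 144 CPM in pup cells. Its log2 fold change of 2.35 ± 0.82 (SE; edgeR adjusted p = 0.284) was the highest of the cycle, above those of its partner subunits Idh3b (1.35 ± 0.60) and Idh3g (1.48 ± 0.63). The intervals of 1 SE around the 3 values overlap, but they do not measure the difference between subunits counted in the same libraries. That difference was not tested. Ogdh, the E1 subunit of the oxoglutarate complex, stood at 695 and 578 against 134 and 241 CPM, and Dlst, its E2 subunit, at 304 and 177 against 81.7 and 99.7 CPM. Their log2 fold changes were 1.76 ± 0.71 and 1.41 ± 0.56 (SE). Cs, citrate synthase, stood at 522 and 363 against 81.7 and 221 CPM, and Mdh2, the malate dehydrogenase of mitochondria, at 836 and 574 against 116 and 340 CPM (1.55 ± 0.74 and 1.63 ± 0.83 on the log2 scale). Fh1, fumarase, stood at 219 and 143 against 34.4 and 105 CPM (1.37 ± 0.68). The succinyl-CoA ligase subunits were the least different, Sucla2 at 196 and 139 against 62.6 and 105 CPM and Suclg1 at 247 and 193 against 73.3 and 118 CPM. Without pup replicate 1 the 10 ranged from 0.66 for Sucla2 to 1.76 for Idh3a.

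Summed per kb of exon, the 15 glycolytic enzymes came to 2166 and 1626 CPM per kb in adult and 318 and 796 in pup, and the 10 TCA subunits to 981 and 697 against 175 and 392. The TCA sum was 45.3% and 42.8% of the glycolytic sum in adult and 54.8% and 49.3% in pup. The adult mean of the log2 ratio minus the pup mean was -0.24. That difference rests on Aldoa, the largest term of the sum: without it the TCA sum was 71.1% and 67.7% in adult and 73.8% and 67.7% in pup, a difference of -0.026, and the ages overlapped. Gene by gene the medians lay the other way, at 1.45 for the 10 TCA subunits and 1.06 for the 15 glycolytic enzymes, and the difference between these medians was not tested. The 42 genes together took 1.65% and 1.13% of all gene counts in adult replicates 1 and 2 and 0.384% and 0.603% in pup replicates 1 and 2.

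Of the 14 ratios between isozymes or subunits of 1 step, 11 did not overlap between the ages. No share over other pairs of genes was computed to set beside that count. The pairs are not independent, as those among Pfkl, Pfkm and Pfkp share genes, and so do those among the PDH kinases. The largest differences of adult from pup were 4.70 for Eno1 to Eno2, -4.42 for Slc16a1 to Slc16a3, 4.004 for Hk1 to Hk2 and -2.28 for Ldha to Ldhb, on the log2 scale. The sign of a ratio within a library depends on the exon lengths, and the difference between ages does not. The first pair rests on low counts of Eno2, and the second on low counts of both carriers. The 3 ratios that overlapped were Pfkl to Pfkm, Pfkfb2 to Pfkfb3 and Pdk1 to Pdk4. All 11 have the same exact p of 0.333, which adjustment over 14 pairs can only raise, so none can pass a threshold of 0.05.

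**Figure D4:**
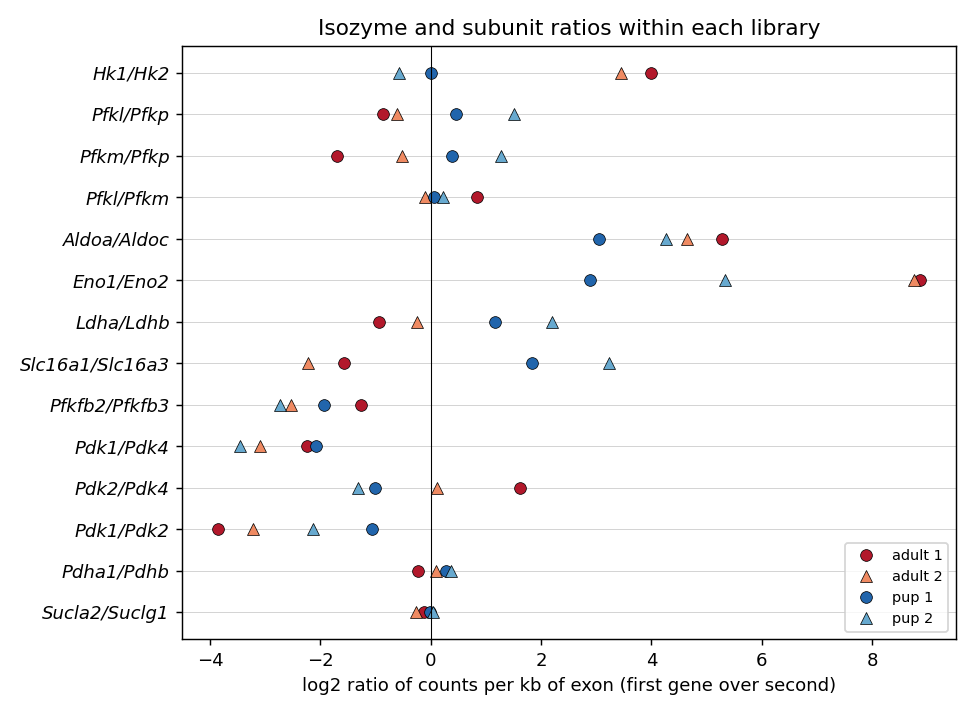
Log2 ratio of counts per kb of exon between the genes of each pair, within each library; circles are replicate 1, triangles replicate 2, red shades adult and blue shades pup. Red and blue points separate for 11 of the 14 pairs, most widely for Eno1/Eno2, Slc16a1/Slc16a3 and Hk1/Hk2. Several pairs share a gene, and the share over other gene pairs was not computed.

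Other genes of these pathways were taken from lists written for this comparison, with results for the members already known. edgeR called 0 genes of these lists and DESeq2 called 6, among them Myc, lower in adult, and Galm, Pck2, Mdh1 and Sdha, higher in adult. Those 6 are 7.41% of the 81 list genes tested, no more than the 9.02% of all genes that DESeq2 called. At an unadjusted p under 0.05 edgeR gave 5 of 22 higher among the other TCA and PDH genes. In other glycolysis and gluconeogenesis edgeR gave 3 of 19 higher and 1 of 19 lower. Among hypoxia-inducible factors and their genes it gave 3 of 20 lower. At that p 5.99% of all genes were higher in adult and 8.49% lower. Whether the counts of these short lists exceed those shares was not tested. Of 22 tested genes among the other TCA and PDH genes, 16 were positive with a median log2 fold change of 0.90, and 12 had both adults above both pups while 3 had both below, against 21.8% and 27.1% of all genes. Mdh1, the cytosolic malate dehydrogenase, stood at 1121 and 858 against 101 and 266 CPM (2.43 ± 0.87, SE). Dlat, the E2 subunit of PDH, stood at 200 and 132 against 49.3 and 70.0 CPM, and the succinate dehydrogenase subunits Sdha and Sdhd had log2 fold changes of 1.84 ± 0.73 and 1.85 ± 0.75. Of 19 tested other genes of glycolysis and gluconeogenesis, 10 were positive with a median of 0.46, and 7 had both adults above both pups and 3 both below (21.8% and 27.1% of all genes). Galm, which interconverts the anomers of glucose, stood at 57.6 and 81.9 against 11.9 and 12.9 CPM (2.49 ± 0.51). Pck2, the PEPCK of mitochondria, stood at 155 and 130 against 42.9 and 60.2 CPM, and Pcx, pyruvate carboxylase, at 16.1 and 88.7 against 8.01 and 8.77 CPM (89.8% expected from background in pup replicate 1). Pfkfb1 stood at 0 and 0.0720 CPM in adult and at 4.33 and 1.10 CPM in pup, its counts in pup replicate 1 being below the expected background.

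Of 12 tested other carriers 8 were positive, with a median of 0.92, and 4 had both adults above and 2 both below (21.8% and 27.1% of all genes). Mpc1 and Mpc2, which form the pyruvate carrier of mitochondria, stood at 87.9 and 55.5 against 11.7 and 35.9 CPM and at 372 and 236 against 59.1 and 164 CPM. Slc16a7 (MCT2) stood at 59.9 and 22.2 against 18.8 and 11.7 CPM, with 95.2% of its counts in pup replicate 1 expected from background. Slc2a10 stood lower in adult, at 5.06 and 7.13 against 12.0 and 35.6 CPM. Of 8 tested other pentose phosphate genes 5 were positive, with a median of 0.09. Prps2, which makes PRPP from ribose 5-phosphate, stood at 37.9 and 28.5 against 7.03 and 16.4 CPM (83.3% expected from background in pup replicate 1), Rpe at 30.5 and 41.3 against 26.1 and 24.0 CPM and Tktl1 at 0.153 and 1.08 against 7.90 and 1.37 CPM. Of 20 hypoxia-inducible factors and other genes they act on 14 were negative, with a median of -0.42, and 8 had both adults below both pups while 2 had both above. These lie near the values of all genes, of which 57.1% were negative with a median of -0.24 and 27.1% and 21.8% had both adults below or above. Myc stood at 63.8 and 137 against 266 and 553 CPM (-2.03 ± 0.73, SE; edgeR adjusted p = 0.284, DESeq2 adjusted p = 0.0126), and Adm, adrenomedullin, at 37.4 and 58.5 against 98.8 and 146 CPM. Car9 stood at 0.0766 and 0 against 2.49 and 6.15 CPM, with more counts expected from background in pup replicate 1 than were found. Egln3, a prolyl hydroxylase that marks hypoxia-inducible factors for decay, stood the other way, at 42.8 and 83.2 against 19.0 and 39.4 CPM.

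Some members share sequence with other genes, which limits what their counts mean. Of the 50-base stretches in the longest transcript of Eno1, 72.2% also occur in transcripts of other genes, as do 68.0% for Pgk1, 41.5% for Pgam1, 34.4% for Pkm, 27.8% for Gapdh (spread over 218 genes), 27.0% for Ldhb and 26.1% for Pfkfb2. Reads from those stretches may be dropped or split, so the levels of these genes and the shares of Eno1 and Ldhb are uncertain. Aldoa carries 2 gene IDs in the annotation, of which the longer was used; the other had 7 to 18 counts per library.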

How the data were processed

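RNA of cells sorted as Fgf10-positive was made into libraries with the SMART-Seq HT kit from 1 ng of total RNA, per the labels' protocols. The authors deposited raw read counts per Ensembl gene, with tools named in the submitters' processing notes: cutadapt 1.18, STAR 2.5.2a, HTSeq 0.11.0, R 3.5.1, DESeq2 1.20.0 and build GRCm38. Whether counting used strand, which annotation release it used and with which options is not given in the sources used here. Without the strand, overlapping and antisense genes cannot be told apart. HTSeq's tallies of unassigned reads (31.5% to 84.4% of reads) were left out of library sizes. A pair of tables of the whole series was not used, because its 8 value columns match no single sample. Of 53465 genes 53360 matched GENCODE vM21, which gave symbols, gene positions and exon lengths.

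In R 4.3.3, edgeR 4.0.16 (TMM, filterByExpr with minimum count 10 and total 15, quasi-likelihood test, age as the only term, Benjamini-Hochberg adjustment over 16320 genes) gave fold changes of adult over pup. Its SE is the log2 fold change over the root of F. Ratios had 0.5 count added. DESeq2 1.42.0 and limma 3.58.1 (voom), other scalings, filters, background subtraction, a replicate block and each library left out were alternatives. The code was tested on simulated data. The members and lists were chosen with earlier results of these data known. All 42 members are named; of other pathway genes, up to 4 per list with the smallest unadjusted p among those whose ages do not overlap. Exon length is the union over transcripts.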

Additional observations from a re-analysis of the deposited data

How the results depend on the processing

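The number of genes called was 0 for all genes and for the 42 under the other scalings, limma-voom, the replicate block and background subtraction. It was 515 and 2 with no filter beyond 1 count (Ldhb higher, Slc16a1 lower), 15 and 0 with 10 counts in every library of an age, and 1472 and 15 by DESeq2, which also called 6 of the other pathway genes. With each library left out in turn the numbers were 0 to 980 for all genes, 0 to 1 for the 42 and 0 to 2 for the other pathway genes; calls came only without an adult library (390 without replicate 1 and 980 without replicate 2). The lone sample is then assumed to vary like the other age. The cause was not tested.

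The median of the 42 ran from 1.08 to 1.44 over the settings with all libraries and from 0.95 to 2.003 with a library left out. The median of all genes, -0.24 under TMM, was -0.31, -0.42 and -0.62 under DESeq2 factors, upper quartile and library totals. Direction turned for genes near 0: under library totals for Pfkfb2 (-0.12), Pfkfb3 (-0.28), Pdk1 (-0.14) and Pdk4 (-0.12), for Pfkfb3 also under upper quartile (-0.084), limma-voom (-0.090) and the replicate block (-0.089), and for Slc16a3 with background subtracted (0.22). With a library left out, Slc16a3 ran from -2.41 to 0.024, Pfkfb3 from -0.89 to 0.65 and Pdk4 from -0.38 to 0.79. Deviations from the age means had a correlation of -0.035 between adult replicate 1 and pup replicate 1. With 2 libraries per age and the background of pup replicate 1, that value cannot show whether equal replicate numbers pair the samples. The replicate block left the median at 1.40 and changed no call. Background subtraction moved Slc16a1 to Slc16a3 from -4.42 to -5.52 and Pfkfb2 to Pfkfb3 from 0.44 to 2.36. The log2 ratio of the TCA to the glycolytic sum differed by -0.32 to -0.16 with a library left out and by -0.026 without Aldoa. That last setting, and those in which 36 to 40 genes did not overlap between the ages, were chosen after seeing the data. Depth limits Slc16a1, Slc16a3, Eno2 and Pfkfb2 in particular.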
